A study of Rattus norvegicus with 30 samples.

Results

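The genes for the ligands and receptors of vascular endothelial growth factor (VEGF) were followed in rat lung cells sorted for CD31, a surface protein of endothelial cells, 3 weeks after a sham or a Glenn operation. The genes were taken by name: the ligands Vegfa, Vegfb, Vegfc, Vegfd and Pgf, the receptors Kdr, Flt1 and Flt4, and the co-receptors Nrp1 and Nrp2. These are 10 of the 30562 rows of the deposited table, and all 10 were among the 16171 genes that passed the filter on low counts. The Glenn operation connects the superior vena cava with a pulmonary artery, so that venous blood that has not come from the liver flows into the lung; the sham operation leaves this flow as it was. All rats were wild-type, and after surgery they ate a diet with a control, a deficient or an excess content of vitamin A. The 6 groups were therefore sham and Glenn on the control diet, sham and Glenn on the deficient diet, and sham and Glenn on the excess diet, with 5 libraries each. The labels give no age, sex or strain, and they do not say whether each library came from its own animal, so the p-values measure the spread between these libraries. By a level of the Y-linked gene Ddx3y above 10 CPM, 13 libraries were read as male and 17 as female, with both in every group. The cells were captured on magnetic beads, and marker genes of other lung cells were also measured in each library.

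VEGF ligands are secreted and act on receptor tyrosine kinases that sit mainly on endothelial cells. VEGF-A binds Kdr, which carries most of its signal for growth, survival and permeability of blood vessels, and binds Flt1 more tightly but with little signalling, so that Flt1 also acts as a trap for the ligand. Placental growth factor (Pgf) and VEGF-B bind Flt1 and not Kdr. VEGF-C and VEGF-D act chiefly on Flt4, the receptor of lymphatic endothelium that is also made by sprouting blood vessels. Neuropilins bind ligands beside these receptors and also serve as receptors for class 3 semaphorins. In the lung, alveolar epithelial cells are a main source of VEGF-A, and the alveolar capillaries depend on it.

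The stretches upstream of 4 of the genes are printed because these genes carry the largest part of what follows: Vegfa and Kdr, the ligand and receptor of the main blood vessel signal, which were both lower after Glenn surgery, and Pgf and Flt4, which were both higher. Each is the 250 bases before the annotated transcription start, read in the direction of the gene, from RefSeq's table for the rat assembly GRCr8. The authors' values rest on the older assembly mRatBN7.2 (rn7), so these coordinates hold for GRCr8 only. Capitals mark GC boxes, the letters GGGCGG on either strand, which zinc finger factors such as Sp1 can bind. The Vegfa stretch is chr9:22452604-22452853 on the plus strand, before the first of 2 start sites in that table, the Pgf stretch is chr6:110557748-110557997 on the minus strand, the Kdr stretch is chr14:32571813-32572062 on the plus strand, and the Flt4 stretch is chr10:34414584-34414833 on the plus strand.
Vegfa: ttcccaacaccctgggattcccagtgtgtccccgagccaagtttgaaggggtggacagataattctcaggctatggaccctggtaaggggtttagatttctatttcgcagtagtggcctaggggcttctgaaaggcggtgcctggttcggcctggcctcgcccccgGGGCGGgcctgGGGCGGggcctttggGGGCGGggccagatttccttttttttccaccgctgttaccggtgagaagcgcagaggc
Pgf: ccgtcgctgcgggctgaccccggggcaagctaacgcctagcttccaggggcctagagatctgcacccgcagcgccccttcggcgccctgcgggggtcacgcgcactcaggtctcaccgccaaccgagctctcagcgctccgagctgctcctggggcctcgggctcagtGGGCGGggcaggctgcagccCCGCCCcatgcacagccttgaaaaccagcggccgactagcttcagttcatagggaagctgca
Kdr: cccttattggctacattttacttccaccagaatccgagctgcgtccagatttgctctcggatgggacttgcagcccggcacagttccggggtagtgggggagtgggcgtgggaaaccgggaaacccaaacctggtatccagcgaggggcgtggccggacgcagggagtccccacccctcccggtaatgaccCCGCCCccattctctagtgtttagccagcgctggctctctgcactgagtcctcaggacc
Flt4: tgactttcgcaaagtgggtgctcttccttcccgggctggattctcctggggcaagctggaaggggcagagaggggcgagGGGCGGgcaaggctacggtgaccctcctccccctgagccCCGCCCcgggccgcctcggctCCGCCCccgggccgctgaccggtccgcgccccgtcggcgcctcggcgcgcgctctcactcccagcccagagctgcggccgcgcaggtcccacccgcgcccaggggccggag

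A GC box was found before the start of Vegfa 3 times, of Flt4 3 times, of Pgf 2 times and of Kdr once. Over all 10 genes, each taken at its first start site, 7 had at least 1 GC box, against 30.5% of the 33469 stretches of this length in the table. The stretches of Vegfa, Pgf, Kdr and Flt4 had G or C at 60.4%, 69.2%, 61.6% and 76.0% of their bases, while the median over all stretches was 51.2%. The core letters that hypoxia-inducible factors recognise were searched on both strands in a pair of forms. The form ACGTG was in 0 of the 10 stretches and in 16.6% of all stretches. The other form, GCGTG, was in 6 of the 10, those of Vegfb, Pgf, Kdr, Flt1, Nrp1 and Nrp2, and in 25.9% of all. GGAA, the core of sites for ETS factors, was in all 10 and in 93.2% of all. A match describes these letters only, and its absence says only that the letters are not in this window.

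Total estimated counts ranged from 22 to 77.6 M over the libraries (median 40 M), and levels are given as CPM, counts relative to the total of a library after TMM scaling. CPM values are not divided by gene length, so levels of different genes were not compared. The library names fall in 2 number ranges, called series A (22 libraries) and series B (8 libraries). All libraries on the control diet, and all excess-diet sham libraries, were of series A, and the series was a term of the fit. The libraries also split by the level of the histocompatibility gene RT1-CE16 into 13 high and 17 low ones, with 6 high sham and 7 high Glenn libraries. This split was uneven on the excess diet, with 0 high sham and 3 high Glenn libraries. On each of the other diets 3 sham and 2 Glenn libraries were high. All 8 series B libraries were high. Replicate 1 of each of the 3 Glenn groups had stood apart in other genes in an earlier examination of these data, and without these 3 libraries 9 VEGF genes changed over all diets and 8, 7 and 6 with the control, deficient and excess diet. Markers of blood and lymphatic endothelium were present in every library, and so were those of type 2 alveolar epithelial cells, whose 10 genes summed to 51629.7 to 89265 CPM for sham and 34804 to 79798 CPM for Glenn libraries. In the leukocyte list, Marco was at 0 in 26 libraries, Cd3e in 13 and S100a8 in 12. Csf1r, Cd68, Ptprc and Cd79a of that list were at 0 in no library, with medians of 22.8, 4.53, 2.42 and 1.09 CPM.

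Glenn surgery was compared with sham surgery first over all diets and then on each diet, to ask which VEGF genes the operation changed. Averaged over diets, 9 of the 10 genes changed: Pgf, Vegfd, Flt4 and Nrp2 were higher and Vegfa, Kdr, Nrp1, Vegfc and Flt1 lower, while Vegfb did not pass the test. A change is an adjusted p under 0.05 in edgeR's quasi-likelihood test, corrected by the Benjamini-Hochberg method over all 16171 genes. Such calls were common in these data: 48.2% of all genes tested changed in the average over diets, 23.4% higher and 24.7% lower. The median size of the log2 change was 0.80 for the 10 genes and 0.22 for all genes tested. For 4 of the 10, Pgf, Flt4, Vegfa and Nrp1, no sham library overlapped any Glenn library, which held for 5.83% of all genes.

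With the control diet, 8 of the 10 VEGF genes changed, 3 higher and 5 lower, against 24.9% of all genes tested (11.8% higher, 13.1% lower). The libraries of 6 did not overlap, against 17.2% of all genes. On the deficient diet 8 changed as well, 4 higher and 4 lower, against 27.4% of all genes (13.7% higher and 13.7% lower), and 7 did not overlap, against 19.6%. On the excess diet 6 changed, 3 higher and 3 lower, against 21.9% of all genes (11.6% higher, 10.4% lower), and 6 did not overlap, against 16.3%. The 6 genes that changed on every diet were Vegfa, Kdr and Nrp1, each lower, and Pgf, Flt4 and Nrp2, each higher. The 3 diets share no libraries in these comparisons. Among the RT1-CE16-low libraries alone, 7 changed over all diets and 5 on each diet.

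**Figure D1:**
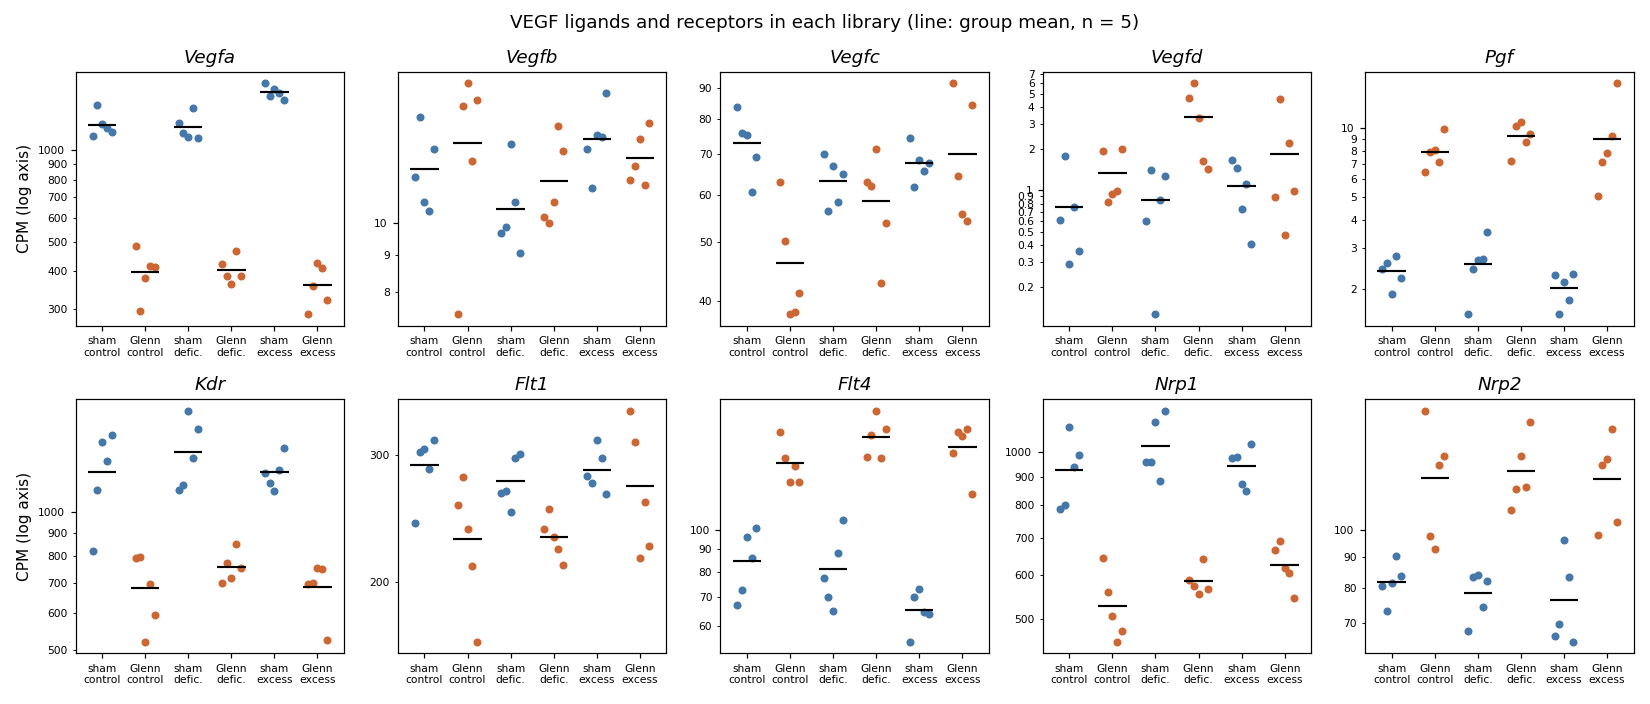
Level of each VEGF gene in CPM (vertical log axis, its own range per panel) in the 30 libraries, blue for sham and orange for Glenn, with a line at the mean of each group of 5. The Vegfa panel has all 15 Glenn libraries between 289 and 484 CPM, below all 15 sham libraries at 1096 to 1655 CPM, and the Flt4 and Pgf panels show the opposite order.

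Among the ligands, Vegfa (ENSRNOG00000019598) fell on every diet and was the member with the largest loss. On the control diet it stood at 1113, 1406, 1215, 1179 and 1142 CPM in the sham libraries and at 484, 296, 379, 415 and 414 CPM in the Glenn libraries. On the deficient diet the sham libraries had 1223, 1139, 1103, 1377 and 1096 CPM and the Glenn libraries 423, 386, 362, 467 and 387 CPM. On the excess diet the values were 1655, 1501, 1587, 1540.4 and 1463 CPM for sham and 289, 358, 425, 409 and 323 CPM for Glenn libraries. Every Glenn library was below every sham library, with a wide gap, and the excess-diet sham libraries were the highest of all. Over the diets the mean was 1316 ± 196 CPM for sham and 388 ± 56.1 CPM for Glenn libraries (SD, n = 15 each). The fitted level was 3.42-fold lower (log2 change -1.77, SE 0.064, edgeR adjusted p 7.15e-19), and 3% of all genes tested had a larger change in size. By diet the log2 changes were -1.61 (SE 0.11, adjusted p 3.88e-12) on the control, -1.53 (SE 0.11, adjusted p 1.51e-11) with the deficient and -2.19 (SE 0.12, adjusted p 7.54e-13) on the excess diet. In sorted cells read in bulk, fewer cells of a type and less RNA per cell cannot be told apart.

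Marker genes of the alveolar epithelium, a main source of VEGF-A, moved with the operation in both directions. Of the 12 type 1 alveolar genes, which include the widely expressed Cav1, 7 were higher after Glenn surgery and 3 lower, against 23.4% and 24.7% of all genes tested. Their summed level was 2926 to 4086 CPM for sham and 3337 to 5368 CPM for Glenn libraries. Cav1 was the largest part of that sum, with means of 2165 CPM for sham and 2307 CPM for Glenn libraries. All 10 type 2 alveolar genes were lower averaged over diets, against 24.7% of all genes tested, with a median log2 change of -0.44. By diet the median was -0.15, -0.62 and -0.55 with the control, deficient and excess diet. In that order 0, 10 and 3 of the 10 genes were lower, against 13.1%, 13.7% and 10.4% of all genes tested. With scores of both lists as covariates the Vegfa log2 change was -1.94 averaged over diets, and -1.76, -1.76 and -2.30 with the control, deficient and excess diet. The number of alveolar cells in each library was not measured, and their part in the Vegfa levels was not tested further.

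Pgf (ENSRNOG00000005650), a ligand of Flt1 that is low in most healthy adult tissues, rose on every diet. Its control-diet levels were 2.45, 2.58, 1.89, 2.77 and 2.24 CPM for sham and 6.47, 7.91, 8.02, 7.17 and 9.98 CPM for Glenn libraries. For the deficient diet they were 1.55, 2.45, 2.67, 2.69 and 3.53 CPM for sham and 7.19, 10.2, 10.7, 8.68 and 9.42 CPM for Glenn libraries. Excess-diet libraries had 2.29, 1.56, 2.15, 1.78 and 2.31 CPM for sham and 5.05, 7.17, 7.81, 9.29 and 15.7 CPM for Glenn libraries. No sham library reached any Glenn library, and 1 excess-diet Glenn library stood well above the other 4. The counts behind these levels were modest, 53 to 146 per sham library and 217 to 673 per Glenn library. The mean over diets was 2.33 ± 0.515 CPM for sham and 8.72 ± 2.46 CPM for Glenn libraries (SD, n = 15 each), a fitted 3.60-fold rise (log2 change 1.85, SE 0.12, edgeR adjusted p 1.66e-13). The log2 changes were 1.73 (SE 0.20), 1.98 (SE 0.21) and 1.84 (SE 0.23) on the control, deficient and excess diets, each past the threshold.

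Pericyte and smooth muscle markers and fibroblast markers rose beside Pgf and Vegfd. All 9 mural genes tested were higher averaged over diets, against 23.4% of all genes tested. The summed level of the mural genes was 164 to 334 CPM for sham and 470.4 to 1697 CPM for Glenn libraries, without overlap. Of 8 fibroblast genes 7 were higher, against the same 23.4% of all genes. The fibroblast sum of 1281 to 3270.1 CPM after sham overlapped that of 1811 to 4709 CPM for Glenn libraries. No listed mural or fibroblast gene was at 0 in any library. By diet the median log2 change of the fibroblast list was 0.19, 1.00 and 0.81 with the control, deficient and excess diet, and that of the mural list 1.06, 1.97 and 1.80. In that order 0, 5 and 1 of the 8 fibroblast genes were higher, and 6, 8 and 8 of the 9 mural genes. Of all genes tested 11.8%, 13.7% and 11.6% were higher. The part of these cells in the Pgf and Vegfd levels was not tested.

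Vegfd (ENSRNOG00000003587), a ligand of Flt4 made largely by fibroblasts and other stromal cells, was near the limit of what these libraries resolve, with 4 to 101 counts per sham library and 16 to 256 per Glenn library. Its control-diet levels were 0.606, 1.78, 0.29, 0.753 and 0.364 CPM for sham and 1.91, 0.825, 0.93, 0.994 and 2 CPM for Glenn libraries. On the deficient diet the levels were 0.594, 1.4, 0.126, 0.842 and 1.26 CPM for sham and 4.62, 5.94, 3.32, 1.63 and 1.43 CPM for Glenn libraries. Levels on the excess diet were 1.65, 1.44, 0.736, 1.11 and 0.409 CPM for sham and 0.893, 4.6, 0.475, 2.19 and 0.98 CPM for Glenn libraries. The groups overlapped on the control and excess diets and lay just apart on the deficient diet. Averaged over diets Vegfd was 2.35-fold higher after Glenn surgery (log2 change 1.23, SE 0.31, edgeR adjusted p 0.00167), and on the deficient diet 3.07-fold higher (log2 change 1.62, SE 0.57, adjusted p 0.0327). The changes on the control diet (0.78, SE 0.54, adjusted p 0.319) and the excess diet (1.30, SE 0.59, adjusted p 0.117) did not pass in edgeR, while limma passed the latter (1.73, adjusted p 0.0161). The deficient-diet call was lost in series A alone (log2 2.22, adjusted p 0.0528) and without sham library 1, 2 or 3 or Glenn library 2 of that diet (log2 1.33 to 1.65, adjusted p 0.0674 to 0.120), and over all diets the change was 0.83 (adjusted p 0.239) with alveolar scores as covariates.

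Vegfc (ENSRNOG00000011416), the main growth factor of lymphatic vessels, fell on the control diet. There it stood at 83.8, 75.8, 75.3, 60.7 and 69.3 CPM for sham and 62.9, 50.3, 38, 38.4 and 41.2 CPM for Glenn libraries. Deficient-diet libraries had 70, 56.3, 66.8, 58.3 and 65 CPM for sham and 62.9, 61.9, 71.5, 42.8 and 53.9 CPM for Glenn libraries, and the excess-diet libraries 74.4, 61.8, 68.5, 65.6 and 67.8 and 91.7, 64.5, 55.7, 54.3 and 84.5 CPM. On the control diet 1 Glenn library reached into the sham range, and on the other diets the groups lay over each other. The control-diet level was 1.58-fold lower (log2 change -0.66, SE 0.14, edgeR adjusted p 5.69e-04), while the changes of -0.17 (SE 0.14, adjusted p 0.395) with the deficient and 0.19 (SE 0.15, adjusted p 0.430) with the excess diet did not pass. In RT1-CE16-high libraries alone the deficient-diet change was -0.39 (adjusted p 0.0452). Averaged over diets Vegfc was slightly lower (log2 change -0.22, SE 0.080, adjusted p 0.0270). That call was lost without Glenn control library 4, sham deficient library 3 or Glenn excess library 2 (adjusted p 0.0516 to 0.0595), and in series A alone (log2 -0.12, adjusted p 0.315).

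Vegfb (ENSRNOG00000021156), a ligand of Flt1 linked to fatty acid uptake by endothelium, stood between 9.08 and 15.2 CPM for sham and between 7.44 and 15.7 CPM for Glenn libraries. Its groups overlapped on every diet. The log2 change averaged over diets was 0.03 (SE 0.082, edgeR adjusted p 0.821), with an interval of 2 SE from -0.14 to 0.19. With type 1 and type 2 alveolar scores as covariates it was 0.34 (adjusted p 0.0151), and on the deficient diet 0.63 (adjusted p 0.00939).

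**Figure D2:**
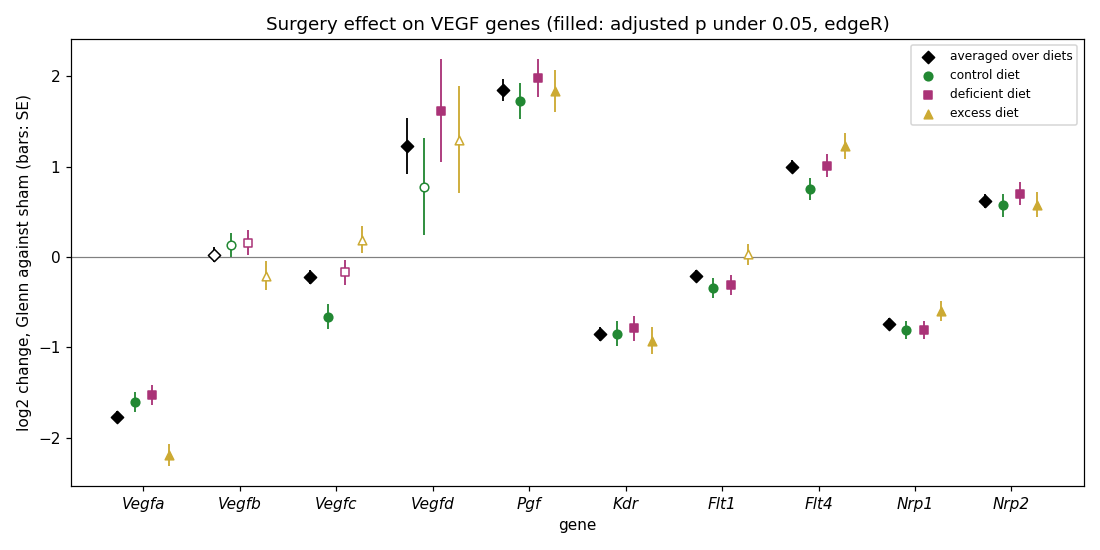
Log2 change from sham to Glenn surgery of each VEGF gene (vertical axis, bars 1 SE), averaged over diets (black) and on the control (green), deficient (purple) and excess (yellow) diets, with symbols filled where the edgeR adjusted p is under 0.05. All 4 symbols are filled below 0 for Vegfa, Kdr and Nrp1 and filled above 0 for Pgf, Flt4 and Nrp2, while those of Vegfb are open.

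Of the receptors, Kdr (ENSRNOG00000046829), which carries most of the VEGF-A signal, fell on every diet. Control-diet sham libraries had 821, 1117, 1419, 1291 and 1466 CPM and Glenn libraries 794, 795, 521, 694 and 595 CPM. The deficient diet gave 1114, 1144, 1659.6, 1310.2 and 1511 CPM for sham and 699, 774, 715, 851 and 755 CPM for Glenn libraries. The excess diet gave 1214, 1156, 1111, 1235 and 1376 CPM for sham and 696, 699, 753, 749.9 and 525 CPM for Glenn libraries. Within each diet the groups did not overlap, though across diets sham control library 1, at 821 CPM, was below Glenn deficient library 4, at 851 CPM. Over the diets the mean was 1263 ± 206 CPM for sham and 708 ± 95.5 CPM for Glenn libraries (SD, n = 15 each), a fitted 1.81-fold fall (log2 change -0.85, SE 0.079, edgeR adjusted p 3.09e-10). The log2 changes were -0.85 (SE 0.14), -0.79 (SE 0.14) and -0.93 (SE 0.15) on the control, deficient and excess diets, each past the threshold.

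Most listed markers of the alveolar capillaries, whose cells carry Kdr, were lower as well, and some rose. Averaged over diets, 24.7% of all genes tested fell and 23.4% rose. Of 8 aerocyte genes 5 fell and 2 rose, and their sum was 1996 to 3348 CPM for sham and 1381 to 2112 CPM for Glenn libraries. Of 7 general capillary genes 5 fell and 1 rose, with sums of 6142 to 9608 CPM for sham and 2590.3 to 5994 CPM for Glenn libraries. No listed gene of either kind was at 0 in any library. Those that rose were the aerocyte genes Apln (log2 1.36) and Chst1 (1.07) and the general capillary gene Btnl9 (2.26). The aerocyte score, the mean log2(CPM + 1) of all 8 aerocyte genes, averages rising and falling genes. This score was 7.24 to 7.94 for sham and 6.64 to 7.34 for Glenn libraries. The ranges barely overlap, so a fit at equal score rests on few libraries. With this aerocyte score as covariate the Kdr log2 change over diets was -0.38 (edgeR adjusted p 0.0691) and that of Nrp1 was -0.49; Kdr no longer passed on the control (-0.37, adjusted p 0.174) and excess diets (-0.34, adjusted p 0.357), nor Nrp1 on the excess diet (-0.29, adjusted p 0.333). Among RT1-CE16-low libraries alone the control-diet change of Kdr was -0.45 (adjusted p 0.0899).

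Flt1 (ENSRNOG00000000940), the tight binder of VEGF-A, VEGF-B and Pgf, had the smallest change over diets of the 3 receptors. On the control diet it stood at 241, 303, 306, 287 and 315 CPM for sham and 256, 279.5, 237, 210 and 165 CPM for Glenn libraries. For the deficient diet the levels were 266, 267, 249.6, 297 and 301 CPM for sham and 237, 252, 231, 222 and 211 CPM for Glenn libraries. For the excess diet they were 281, 274, 315, 297 and 265 CPM for sham and 346, 313, 216, 258 and 224 CPM for Glenn libraries. The groups overlapped on all 3 diets, and 2 of the excess-diet Glenn libraries were about as high as the highest sham library or above it. Averaged over diets Flt1 was 1.15-fold lower (log2 change -0.21, SE 0.065, edgeR adjusted p 0.00955). It fell on the control diet (log2 -0.34, SE 0.11, adjusted p 0.0238) and the deficient diet (log2 -0.31, SE 0.11, adjusted p 0.0432), and the value on the excess diet was 0.03 (SE 0.12, adjusted p 0.909). The control-diet call was lost without sham library 3 or 5 or Glenn library 4 or 5 (adjusted p 0.0615 to 0.0916) and in a fit of the 2 control-diet groups alone (adjusted p 0.0774), the deficient-diet call in 7 of the 10 fits that left out 1 library (adjusted p 0.0551 to 0.110), with no series term (log2 -0.26, adjusted p 0.104) and in series A alone (-0.14, adjusted p 0.578), and the call over diets in series A alone (log2 -0.08, adjusted p 0.413).

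Flt4 (ENSRNOG00000002511), the receptor of VEGF-C and VEGF-D, rose on every diet. Its control-diet levels were 67.1, 72.7, 96.2, 85.8 and 101 CPM for sham and 168, 146, 129, 140.2 and 129 CPM for Glenn libraries. On the deficient diet the sham libraries had 77.5, 70, 64.9, 88.4 and 105 CPM and the Glenn libraries 147, 165, 188, 146 and 171 CPM. On the excess diet the sham libraries had 55.2, 69.8, 73, 64.5 and 63.8 CPM and the Glenn libraries 150.3, 168, 164, 171 and 121 CPM. Every Glenn library was above every sham library, whatever the diet. The mean was 77.0 ± 14.9 CPM for sham and 154 ± 18.9 CPM for Glenn libraries (SD, n = 15 each), a fitted 2-fold rise (log2 change 1.00, SE 0.073, edgeR adjusted p 2.95e-12). The log2 changes were 0.75 (SE 0.12), 1.01 (SE 0.13) and 1.23 (SE 0.14) on the control, deficient and excess diets, each past the threshold.

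Lymphatic endothelial markers rose with Flt4 and Nrp2. All 7 listed genes, Prox1, Lyve1, Pdpn, Mmrn1, Ccl21, Reln and Tbx1, were higher after Glenn surgery averaged over diets, against 23.4% of all genes tested. The median log2 change of the 7 was 0.97. Their sum was 1037 to 1927 CPM for sham and 2360 to 4975 CPM for Glenn libraries, without overlap, and none was at 0 in any library. Pdpn is also made by type 1 alveolar cells. The mean log2(CPM + 1) of the 7 genes was 5.39 to 6.30 for sham and 6.57 to 7.11 for Glenn libraries, so libraries of equal lymphatic marker level could not be compared. A fit with this score as covariate extrapolates, so the part of lymphatic cells in the Flt4 and Nrp2 levels was not tested. Over the 15 alternative fits, which include that one, the log2 change over diets was 0.42 to 1.22 for Flt4 and 0.16 to 0.81 for Nrp2. Averaged over diets Flt4 kept its call in all 15, and Nrp2 lost it in 1. By diet Flt4 lost its call in 2 of 17 fits on the control and 1 of 17 on the deficient diet. Its log2 change was as low as 0.22 and 0.44 there, and on the excess diet it kept the call in all 16. Nrp2 lost its call in 2 fits on each diet. Its log2 change was as low as 0.15, 0.24 and 0.08 on the control, deficient and excess diets. Among RT1-CE16-high libraries alone the control-diet change of Flt4 was 0.52 (adjusted p 0.0549). Arterial markers moved as well, with 6 of 8 higher and 2 lower, and of 8 venous markers 3 were higher and 4 lower. Over all genes tested 23.4% were higher and 24.7% lower.

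The co-receptor Nrp1 (ENSRNOG00000010744), which strengthens the binding of VEGF-A to Kdr, fell on every diet. Control-diet libraries had 789, 803, 1108, 938 and 986 CPM for sham and 642, 558, 506, 455 and 475 CPM for Glenn libraries. Deficient-diet libraries had 956, 959, 1130.5, 887 and 1185 CPM for sham and 586, 572, 554, 641 and 565 CPM for Glenn libraries. Those of the excess diet had 975, 976, 875, 851 and 1032 CPM for sham and 664, 690.3, 618, 605 and 545 CPM for Glenn libraries. All Glenn libraries were below all sham libraries. The mean over diets was 963 ± 116 CPM for sham and 578 ± 67.4 CPM for Glenn libraries (SD, n = 15 each), a fitted 1.67-fold fall (log2 change -0.74, SE 0.060, edgeR adjusted p 1.91e-11). The log2 changes were -0.81 (SE 0.10) on the control, -0.81 (SE 0.10) on the deficient and -0.60 (SE 0.11) on the excess diet, each past the threshold.

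Nrp2 (ENSRNOG00000031232), a co-receptor of Flt4 in lymphatic and venous endothelium, rose on every diet. Control-diet levels were 80.5, 73.1, 81.4, 90.3 and 83.8 CPM for sham and 158, 97.5, 92.7, 128 and 133 CPM for Glenn libraries. The deficient diet gave 67.8, 83.4, 84, 74.4 and 82.1 CPM for sham and 108, 117, 133, 118 and 151 CPM for Glenn libraries. The excess diet gave 66.6, 69.6, 96.3, 83.5 and 65.1 CPM for sham and 98, 128, 131, 147 and 103 CPM for Glenn libraries. Within a diet no sham library reached the Glenn libraries, and over the diets only sham excess library 3, at 96.3 CPM, was above the lowest Glenn library, at 92.7 CPM. The mean was 78.8 ± 9.05 CPM for sham and 123 ± 20.2 CPM for Glenn libraries (SD, n = 15 each), a fitted 1.54-fold rise (log2 change 0.62, SE 0.076, edgeR adjusted p 9.24e-08). The log2 changes were 0.57 (SE 0.13), 0.70 (SE 0.13) and 0.58 (SE 0.14) on the control, deficient and excess diets, each past the threshold. Among RT1-CE16-low libraries alone they were 0.61, 0.66 and 0.58 (adjusted p 0.109, 0.0596 and 0.0659).

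Because the paired receptors moved unequally, their balance within each library was compared as well, which does not depend on how a library is scaled. The log2 ratio of Flt1 to Kdr was -2.05 ± 0.211 after sham and -1.57 ± 0.272 after Glenn surgery on the control diet (SD, n = 5 each). It was -2.27 ± 0.276 and -1.72 ± 0.164 on the deficient diet, and -2.09 ± 0.198 and -1.35 ± 0.320 on the excess diet. The ratio was higher after Glenn surgery on every diet, the groups overlapping on the control diet, lying apart on the deficient diet and just apart on the excess diet. The differences were 0.48 (exact permutation p 0.0159, adjusted 0.0159), 0.56 (exact p 0.00794, adjusted 0.00952) and 0.74 (exact p 0.00794, adjusted 0.00952) on the control, deficient and excess diets. The ratio was taken on genes already seen to move by different amounts. These are two-sided tests over the 252 ways to split 5 and 5 libraries, adjusted over 6 tests, and 0.00794 is the smallest p they can give. The 6 include the Nrp2 to Nrp1 tests, whose outcome was fixed by the genes themselves. The adjusted values on the deficient and excess diets are therefore smaller than over the Flt1 to Kdr tests alone.

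For Nrp2 to Nrp1 the log2 ratio was -3.49 ± 0.183 after sham and -2.13 ± 0.329 after Glenn surgery on the control diet (SD, n = 5 each). The deficient diet gave -3.70 ± 0.146 and -2.23 ± 0.237, and the excess diet -3.64 ± 0.352 and -2.38 ± 0.266. All Glenn libraries were above all sham libraries. The differences of 1.36, 1.48 and 1.26 correspond to a ratio 2.56, 2.78 and 2.40 times that of sham libraries. They are given without a p, because Nrp2 was higher and Nrp1 lower without overlap on each diet, which fixes that the ratios do not overlap.

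**Figure D3:**
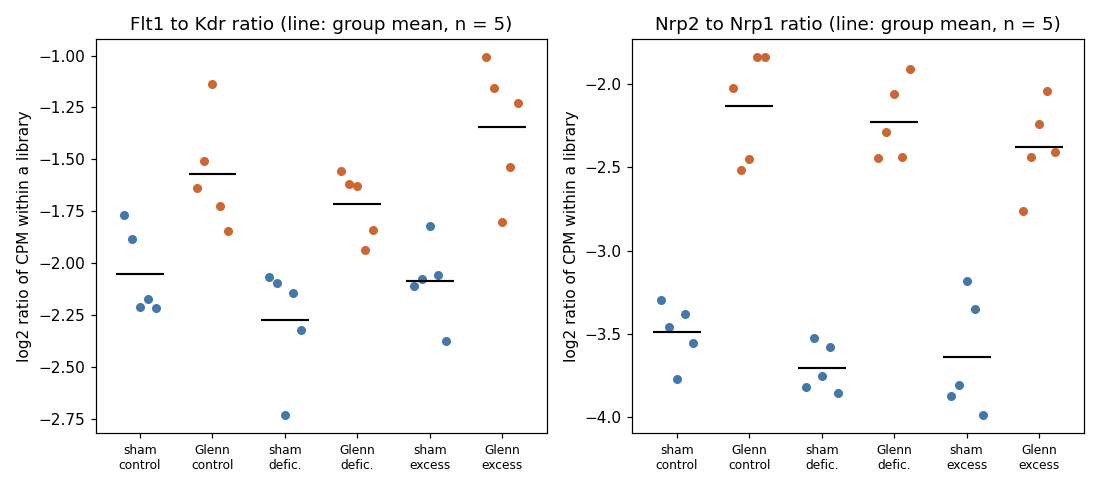
Log2 ratio of Flt1 to Kdr (left) and of Nrp2 to Nrp1 (right) within each library, blue for sham and orange for Glenn, with a line at the mean of each group of 5; gene length is not taken into account, so only shifts between groups can be read. The right panel has all sham libraries at -3.18 or lower and all Glenn libraries at -2.76 or higher.

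The second question of the design was whether dietary vitamin A altered the VEGF genes or their response to surgery. The surgery effect did not differ detectably between diets for any of the 10 genes in edgeR's interaction test (0 past the threshold, 3 at an unadjusted p under 0.05, smallest adjusted p 0.330), and 0 passed in limma or DESeq2. Over all genes tested 0.00618% passed, and 5.72% had an unadjusted p under 0.05. None of the 10 passed in any alternative fit of the interaction, though the smallest adjusted p ranged from 0.0544 to 0.84. With 1 library left out in edgeR it ranged from 0.0517 to 0.648. The smallest unadjusted p values were those of Vegfa (0.000816, adjusted 0.330) and Vegfc (0.00105, adjusted 0.396). The excess-diet change minus the control-diet change was -0.58 for Vegfa, with an interval of 2 SE from -0.90 to -0.26 (adjusted p 0.254). For Vegfc this difference was 0.85, with an interval from 0.44 to 1.26 (adjusted p 0.157).

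Across the 6 comparisons of diets within sham or Glenn groups, 1 of 60 combinations of gene and comparison passed: Vegfc was 1.67-fold higher in Glenn libraries of the excess diet than in those of the control diet (log2 change 0.74, SE 0.15, edgeR adjusted p 0.0141), where 1.47% of all genes passed. The 2 groups of libraries overlapped. The call was lost without Glenn control library 5 (log2 0.70, adjusted p 0.0540), without Glenn excess library 1 (log2 0.61, adjusted p 0.187) and with no term for the library series (log2 0.60, adjusted p 0.104). In the other 5 comparisons 0 of the 10 genes passed, against 0.241% of all genes for excess against control after sham, 0.0124% for excess against deficient after sham, 0.00618% for deficient against control after Glenn surgery, and 0% for deficient against control after sham and for excess against deficient after Glenn surgery. Comparisons with the same diet group share its libraries. In all, 12 of the 60 had an unadjusted p under 0.05, against 8.43% of all combinations of gene and comparison, and 0 more passed in limma or DESeq2.

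The order of the groups shows where diet differences were seen without passing the correction. Vegfa had its highest mean after sham surgery on the excess diet, 1549 ± 75.1 CPM, against 1211 ± 115 CPM on the control and 1188 ± 117 CPM on the deficient diet (SD, n = 5 each). The lowest excess-diet sham library, at 1463 CPM, was above the highest of the other sham libraries, at 1406 CPM. The differences were 0.36 against control (SE 0.11, edgeR adjusted p 0.147) and 0.46 against deficient (SE 0.12, adjusted p 0.353). After Glenn surgery the 3 diets overlapped, at 398, 405 and 361 CPM on the control, deficient and excess diets. For Pgf, Kdr, Flt4, Nrp1 and Nrp2 the order placed all 3 Glenn groups on one side and all 3 sham groups on the other, and neighbouring diets within an operation overlapped. For Vegfb, Vegfc, Vegfd and Flt1 every group overlapped its neighbour in the order.

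Other genes of the pathway were described from 5 lists, which were chosen with earlier results of these data known. The first holds 26 proteins that carry the signal inside the cell from VEGF receptors: 8 were higher, 6 lower and 12 did not pass, which is 53.8% changed against 48.2% of all genes, with a median log2 change of 0.03. The raised genes with the smallest adjusted p were Nos3, the endothelial nitric oxide synthase (log2 0.91, edgeR adjusted p 1.07e-09), the adaptor Gab1 (0.66, adjusted p 2.77e-08) and the phospholipase Plcg1 (0.38, adjusted p 3.69e-08). Nos3 rose from 81.9 ± 10.1 to 154 ± 35.2 CPM (SD, n = 15 each), without overlap of sham and Glenn libraries. The lowered ones were the kinase subunit Pik3ca (-0.49, adjusted p 8.24e-09), the small GTPase Rac1 (-0.27, adjusted p 1.75e-06) and the adaptor Nck1 (-0.27, adjusted p 2.73e-04). Rac1 and Nck1 libraries overlapped between sham and Glenn, and those of Pik3ca did not.

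Of 20 genes that VEGF-A is known to induce in endothelial cells, 15 were higher, 2 lower and 3 did not pass. Over all genes tested 23.4% were higher and 24.7% lower. That is 85% changed against 48.2% of all genes tested, with a median log2 change of 0.41. The list was chosen with earlier results of these data known, so its share is a description and not a test. Angpt2, which destabilises vessels by opposing Tie2 signals, rose from 16.1 ± 1.27 to 85.0 ± 18.1 CPM (log2 change 2.38, SE 0.089, edgeR adjusted p 3.76e-18). Cxcr4, a chemokine receptor of sprouting tip cells, rose from 98.3 ± 22.1 to 359.7 ± 56.1 CPM (log2 1.83, SE 0.10, adjusted p 1.80e-14), and the early response factor Nr4a2 from 28.3 ± 6.13 to 56.0 ± 9.56 CPM (log2 0.97, SE 0.070, adjusted p 1.51e-12). These means have SD with n = 15 each. The genes that fell were the phosphatase Dusp5 (log2 -0.39, adjusted p 1.16e-04) and the homeobox gene Hlx (-0.31, adjusted p 0.00777). With the control, deficient and excess diet 60%, 70% and 55% changed, against 24.9%, 27.4% and 21.9% of all genes tested. By diet, 11, 13 and 10 of the 20 were higher and 1 lower each time. Of all genes tested 11.8%, 13.7% and 11.6% were higher and 13.1%, 13.7% and 10.4% lower. Other signals than VEGF-A can raise these genes too, and Apln in this list is also an aerocyte marker.

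The oxygen-sensing list held genes that control Vegfa and genes induced by hypoxia-inducible factors; 18 of the 20 were matched by name and 17 passed the filter. Of these 6 were higher, 3 lower and 8 did not pass, 52.9% changed against 48.2% of all genes tested. Their median log2 change was -0.0016. Epas1, the subunit HIF-2 alpha that is abundant in lung endothelium, fell from 5411 ± 506 to 2765 ± 442 CPM (log2 -0.95, SE 0.059, edgeR adjusted p 6.06e-14), and Hif1a rose from 111 ± 9.96 to 166 ± 16.2 CPM (log2 0.58, SE 0.046, adjusted p 1.76e-11), both without overlap of libraries. The vasodilator peptide gene Adm rose from 10.2 ± 2.08 to 90.9 ± 22.6 CPM (log2 3.13, SE 0.12, adjusted p 5.90e-18) and the stress gene Ndrg1 from 38.0 ± 9.54 to 108 ± 13.5 CPM (log2 1.52, SE 0.094, adjusted p 1.47e-13), with SD and n = 15 each. The other genes that fell were the mitophagy gene Bnip3 (-0.24, adjusted p 4.30e-04) and the collagen hydroxylase P4ha1 (-0.29, adjusted p 0.00453).

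Of 9 proteins that process VEGF-C and VEGF-D, 5 were higher, 1 lower and 3 did not pass, 66.7% changed against 48.2% of all genes tested. Their median log2 change was 0.48. The convertase Pcsk5 rose (log2 0.79, SE 0.094, edgeR adjusted p 5.09e-08), as did the protease Adamts14 (1.38, SE 0.20, adjusted p 2.02e-06) and the convertase Furin (0.21, SE 0.034, adjusted p 6.66e-06), and the lysosomal protease Ctsd fell (-0.29, SE 0.048, adjusted p 9.09e-06). On the control diet 1 was higher and 1 lower, 22.2% changed against 24.9% of all genes tested. Of 13 semaphorin and plexin partners of neuropilins, 5 were higher, 4 lower and 4 did not pass, 69.2% changed against 48.2% of all genes tested. The ligands Sema3a (1.74, adjusted p 6.81e-11) and Sema3b (1.23, adjusted p 1.44e-06) and the receptor Plxnd1 (0.54, adjusted p 1.13e-07) rose. The ligands Sema3g (-1.42, adjusted p 7.50e-14) and Sema3c (-1.47, adjusted p 2.25e-13) and the receptor Plxna1 (-0.88, adjusted p 1.67e-11) fell, each with no overlap of sham and Glenn libraries.

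**Figure D4:**
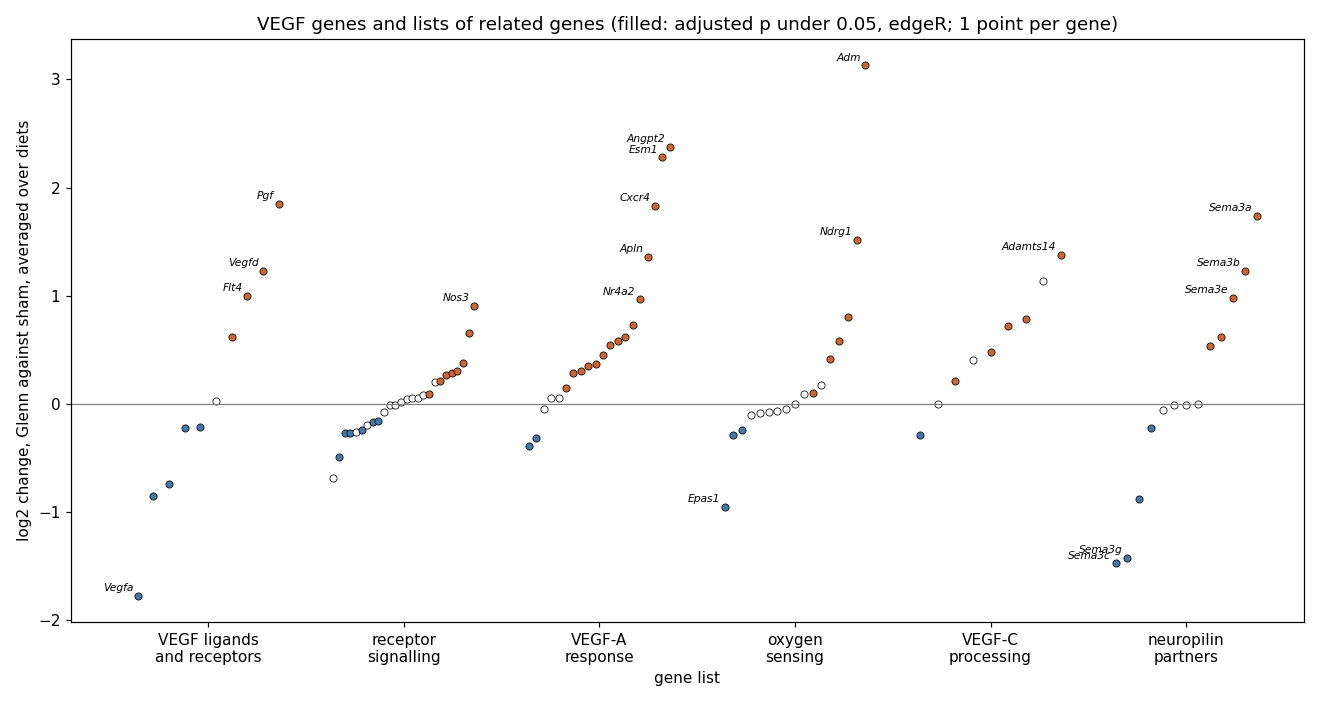
Log2 change from sham to Glenn surgery averaged over diets (vertical axis) of the VEGF genes and of 5 lists of related genes, 1 point per gene in rising order within its list, filled where the edgeR adjusted p is under 0.05 and named where such a change is large. In the VEGF-A response list 15 of 20 points are filled above 0, while in the receptor signalling list 8 are filled above 0 and 6 below it. Over all genes tested 23.4% were higher and 24.7% lower.

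The remaining marker lists complete the account of the cells present. Averaged over diets, 23.4% of all genes tested were higher and 24.7% lower. Of 9 general endothelial markers 3 were higher and 5 lower, and their sum was 8339.5 to 10394 CPM for sham and 6217 to 9079 CPM for Glenn libraries. With their score as covariate the log2 change over diets was -0.01 for Flt1 (edgeR adjusted p 0.886) and -0.01 for Vegfc (adjusted p 0.951). Of 6 platelet markers 5 were lower. Of 4 leukocyte markers tested 1 was higher, Csf1r (log2 0.71), and 1 lower, Cd68 (-0.76), 50% changed against 48.2% of all genes. The 4 mesothelial markers tested had a median log2 change of -0.076. The part of these cells in the levels of the VEGF genes was not tested further.

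For the 3 VEGF genes that passed the test with at least a 2-fold change over diets, the genes with the most similar profile were named by the mean absolute difference of centred log2(CPM + 1) values over the 30 libraries, among the 9354 genes averaging 10 CPM or more. Closest to Vegfa were Fam83d (0.201), Azin1 (0.219) and Hyal3 (0.230), whose means fell from 25.3 to 8.20, from 394 to 143 and from 279 to 85.1 CPM. Closest to Pgf were Olfml2b (0.187), Map1b (0.197) and Rab11fip5 (0.209), whose means rose from 12.6 to 42.0, from 13.5 to 37.8 and from 38.1 to 119 CPM. The nearest genes to Vegfd were Olfml3 (0.245), Spon1 (0.308) and Tcf21 (0.320), of which Tcf21 is a fibroblast marker of the lists above. These are descriptions over libraries that share the operation as their main difference. Flt4, with a log2 change just under 1, was not among the 3. The profiles of Vegfa and Pgf spanned 2.52 and 2.71 units of log2(CPM + 1) over the libraries. The added 1 flattens profiles at low CPM, such as those of Pgf and Vegfd, more than those of the genes compared with them.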

How the data were processed

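RNA was measured in 30 libraries of CD31-sorted rat lung cells, made with a low-input full-length cDNA kit per the labels. The authors deposited estimated counts per gene for all libraries in 1 table. FastQC, Trim Galore, Picard, STAR and Salmon and the build mRatBN7.2 (rn7) are named in the submitters' processing notes, and the annotation release, strand setting and versions are not given in the sources used here. Of the values, 13.6% were not whole; all were rounded. Genes were kept with edgeR's filterByExpr (minimum count 10, minimum total 15), which left 16171 of 30562 rows, and scaled by TMM (factors 0.94 to 1.06). A quasi-likelihood model (edgeR 4.0.16, R 4.3.3) was fitted to all 30 libraries with 6 group means and the library series, with Benjamini-Hochberg adjustment over all genes tested and a threshold of 0.05. The SE of a log2 change was derived from its F statistic. Flt1 to Kdr ratios were tested by exact permutation, with adjustment over the 6 ratio tests computed. The Nrp2 to Nrp1 tests enter that adjustment, but their p-values are not given, since the genes already lay apart. DESeq2 1.42.0, limma 3.58.1, other scalings, filters and terms, marker scores as covariates and the leaving out of each library were tried as alternatives. The fits were tested on simulated data. All libraries of a group differed beyond counting error (chi-square per degree of freedom at least 20.2 over 60 pairs).

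The members and the gene and marker lists were chosen with earlier results of these data known. All 10 VEGF genes are named. From each of 5 pathway lists (receptor signalling, VEGF-A response, oxygen sensing, VEGF-C processing, neuropilin partners), up to 3 raised and up to 3 lowered genes with the smallest adjusted p and a mean of at least 1 CPM are named. For each VEGF gene past the threshold with at least a 2-fold change, the 3 genes with the most similar profile are named. A further 13 lists hold cell type markers. Promoter sequences were taken from RefSeq's table for GRCr8, in which 10 of 10 genes were matched by symbol. Sequences of other kinds and gene lengths were not used here. Figures were drawn with matplotlib 3.10.9.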

Additional observations from a re-analysis of the deposited data

Results flagged for a closer look

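In the Glenn group on the excess diet, Kdr was at 525 CPM in replicate 5, while the other 4 libraries stood between 696 and 753 CPM. The gap to the nearest library was 0.749 of the range of the group, above the limit of Dixon's test for 5 values. Of 72 sets of 5 libraries examined for the VEGF genes and their ratios, this was the 1 set with such a library, and chance gives about 1 in 20, or 3.6 sets. Kdr was lower after Glenn surgery on the excess diet in each fit that left out 1 library.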

How the results depend on the processing

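Of 756 values for single genes under alternatives, 685 kept their direction and their side of the threshold, 47 lost the call, 4 gained it and 20 changed sign. Of 840 values with 1 library left out, 817 kept both, 20 lost the call and 3 changed sign. The count of VEGF genes changed over diets was 6 to 9 under all alternatives, 5 to 8 on the control diet, 5 to 8 on the deficient diet and 4 to 7 on the excess diet. It was 5 on the control and 5 on the deficient diet both in RT1-CE16-low libraries alone (fewer libraries) and with the lymphatic score as covariate. The 1 call among diet comparisons became 0 with no series term, with alveolar scores, with the endothelial score and in RT1-CE16-low libraries, and with 1 library left out the count was 0 to 1. The lymphatic and aerocyte scores, the RT1-CE16 splits and the joint omission of 3 libraries were chosen after seeing the data. No sham library had a lymphatic score as high as any Glenn library (5.39 to 6.30 against 6.57 to 7.11), so that fit extrapolates and says nothing of what remains at equal scores. The aerocyte scores barely overlapped. For the other losses the cause was not tested.

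The Flt1 change on the excess diet, 0.03 and not past the threshold, was -0.08 with no series term, -0.01 with a replicate block, -0.10 with alveolar scores, -0.23 with the lymphatic score, -0.08 without the 3 libraries, and -0.08 to 0.06 with 1 library left out (below 0 without Glenn excess library 1 or 2). Flt1 over diets was 0.00 in RT1-CE16-low libraries. Vegfc on the deficient diet was 0.06 in series A, 0.09 with the endothelial score and 0.05 in RT1-CE16-low libraries. Vegfb on the excess diet was 0.10 with alveolar scores and 0.19 with the lymphatic score. Over diets Vegfb was -0.11 with the endothelial score, -0.03 in RT1-CE16-low libraries, -0.05 with the aerocyte score and 0.00 to 0.07 with 1 library left out, and on the control diet -0.04 with the endothelial score and -0.01 in RT1-CE16-low libraries. With the lymphatic score Vegfd was -0.98 over diets and -1.29, -0.33 and -1.32 on the control, deficient and excess diets.

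The labels do not say that replicate numbers pair the libraries, and a check neither showed nor excluded it. Of 15 same-numbered sham and Glenn pairs 7 had a correlation of deviations over 0.1 (-0.25 to 0.23). Among 5 candidates each, 10 of 30 libraries correlated best with their own number. With the number as a block 9, 8, 7 and 6 VEGF genes changed over all, control, deficient and excess diets, and 1 in the diet comparisons; Flt1 on the deficient diet did not pass (-0.30, edgeR adjusted p 0.0649). Paired by number, the Flt1 to Kdr differences were 0.48, 0.56 and 0.74 (exact p 0.0625 each, the smallest that 5 pairs can give), and those of Nrp2 to Nrp1 1.36, 1.48 and 1.26. In series A alone the deficient-diet differences were 0.48 for Flt1 to Kdr (exact p 0.1, the smallest for 2 against 3) and 1.41 for Nrp2 to Nrp1.

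Depth limits Vegfd most, with as few as 4 counts in a library. Batch, litter and cell purity are not given in the labels. Estimated counts split between transcripts and overlapping genes could not be checked.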
